A study of Mus musculus with 3 samples.

Results

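Hsd3b2, Hsd17b10, Esr1 and Sms are genes of steroid hormone synthesis, turnover, reception and response, and they were followed here in bone marrow of castrated mice given testosterone or placebo. A gene was taken where a spot whose platform annotation lists that gene alone had a value on all 3 arrays. Each of the 4 genes had 1 such spot, so the gene mean is the value of that spot, and they are 4 of 3462 genes measured in this way. Esr1 had 3 further spots of its own, 1 with a value on T1 only and 2 with no value. Each of the 3 two-colour spotted arrays, T1, T2 and T3, set 1 castrated C57BL/6 mouse with a testosterone pellet against its matched castrated mouse with a placebo pellet (n = 3 pairs). The pellets were of 12.5 mg with slow release over 60 days and were carried for 4 weeks; castration was at 7 weeks of age and the mice were 17 weeks old. Testosterone RNA carried Cy5 on T1 and T3 and Cy3 on T2. Castration removes the testes and leaves the adrenal glands. All mice, the controls too, were castrated, and no uncastrated group enters the comparison.

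Values are log ratios read as log2 of testosterone over placebo, so that 1 is a doubling. The direction is likely and not settled, since it rests on testosterone being named the experimental channel. By the labels alone it is least secure for T2, whose dyes are opposite. As deposited, T2 correlated positively with T1 (0.42) and T3 (0.73) over the spots tested. The log base is inferred from the range of the values, and natural logs would turn the 2.46-fold mean of Hsd3b2 into 3.66-fold. Precision is set by the small number of pairs, with a median standard error of 0.107 for a gene mean. The labels name bone marrow, while their protocols describe RNA of pulverized bone and cDNA of bone with its marrow. Of the defining markers listed for each cell type, 9 of 23 for B lineage, 6 of 23 for erythroid cells, 4 of 16 for osteoblasts and matrix and 7 of 18 for skeletal muscle had a value on all arrays. A ratio gives no level, so the tissue could not be checked by the abundance of its markers. In such a mixed tissue fewer cells of a type and less RNA per cell cannot be told apart.

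Steroid hormones are made from cholesterol by cytochromes of the P450 family and by hydroxysteroid dehydrogenases, which oxidise or reduce hydroxyl and keto groups of the steroid ring. Enzymes of the 3-beta-hydroxysteroid dehydrogenase group, to which Hsd3b2 belongs, turn pregnenolone and dehydroepiandrosterone into progesterone and androstenedione, and mice carry several closely related copies of the gene. Hsd17b10 encodes a mitochondrial enzyme that oxidises hydroxyl groups of steroids and of an intermediate of isoleucine breakdown, and is also a subunit of the mitochondrial ribonuclease P that matures transfer RNA. Esr1 encodes estrogen receptor alpha, a nuclear receptor through which testosterone can act in bone once aromatase has converted it to estradiol. Sms encodes spermine synthase, which adds an aminopropyl group to spermidine, and it stands in collections of androgen-responsive genes drawn from prostate cells.

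The 250 bases before the outermost annotated start of each gene are shown so that the 4 promoters can be compared, as RefSeq gives them on GRCm38.p6. They lie at chr3:98724544-98724793 on the minus strand for Hsd3b2, chrX:152001646-152001895 on the plus strand for Hsd17b10, chr10:4611739-4611988 on the plus strand for Esr1 and chrX:157492288-157492537 on the minus strand for Sms. Each is written 5′ to 3′ towards the gene, and capitals mark matches, on either strand, to the motifs described after them.
Hsd3b2: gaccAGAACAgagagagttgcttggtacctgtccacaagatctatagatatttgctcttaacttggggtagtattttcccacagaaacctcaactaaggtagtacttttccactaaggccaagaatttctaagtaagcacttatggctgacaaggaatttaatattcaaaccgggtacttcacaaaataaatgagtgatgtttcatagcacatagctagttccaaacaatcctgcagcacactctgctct
Hsd17b10: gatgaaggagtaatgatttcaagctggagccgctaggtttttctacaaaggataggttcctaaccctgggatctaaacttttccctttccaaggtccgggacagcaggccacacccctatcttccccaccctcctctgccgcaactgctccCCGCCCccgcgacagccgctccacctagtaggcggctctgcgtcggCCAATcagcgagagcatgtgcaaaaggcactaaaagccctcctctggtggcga
Esr1: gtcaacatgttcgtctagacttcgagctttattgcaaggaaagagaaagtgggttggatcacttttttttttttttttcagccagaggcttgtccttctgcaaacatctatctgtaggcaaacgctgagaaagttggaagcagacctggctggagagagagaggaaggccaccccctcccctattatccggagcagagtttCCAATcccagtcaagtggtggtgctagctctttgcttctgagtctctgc
Sms: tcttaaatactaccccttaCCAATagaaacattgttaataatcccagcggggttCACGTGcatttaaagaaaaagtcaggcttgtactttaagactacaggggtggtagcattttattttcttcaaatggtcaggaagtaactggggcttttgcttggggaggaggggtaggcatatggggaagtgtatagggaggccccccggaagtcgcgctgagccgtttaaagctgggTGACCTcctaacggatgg

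The hexamer AGAACA, the core to which the glucocorticoid receptor binds, occurred in the Hsd3b2 window, 246 bases before the start, and in none of the other 3 windows shown. It was present in 16.1% of all 32851 windows of this length, on either strand. AGGTCA, the core bound by estrogen receptors, occurred in the Sms window on the opposite strand, 18 bases before the start, and in 14.02% of all windows. The inverted repeats of these cores, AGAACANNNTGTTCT and GGTCANNNTGACC, which share bases with the hexamers, were in 3 and 21 of all windows and in none of the 4 shown. CCAAT, a box bound by the factor NF-Y, was in the windows of Hsd17b10, Esr1 and Sms, at 53, 49 and 231 bases before the start, and in 33.8% of all windows. The GC box GGGCGG was in the Hsd17b10 window (32.7% of all windows), the E-box CACGTG in the Sms window (6.02%), and TATAAA in none of the 4 (12.4%). The windows also differed in base composition. That of Hsd3b2 held 39.6% G and C with 1 CpG, that of Hsd17b10 57.2% with 12, that of Esr1 47.6% with 4 and that of Sms 47.2% with 7, beside medians of 52.4% and 6 over all windows. Esr1 and Sms each have a further window at a second start, not shown, without either hexamer. These windows differed from those shown. That of Sms held 75.2% G and C with 32 CpG and matches to the GC box, and that of Esr1 59.6% with 7 CpG. These matches describe letters in a window and were not tested for binding.

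Hsd3b2 was higher with testosterone in every pair, while Hsd17b10 and Sms stood below 0 in every pair by small amounts and Esr1 changed sign between pairs. By limma over all 3462 genes with Benjamini-Hochberg adjustment, 1 of the 4 genes passed the threshold of 0.05, Hsd3b2. Over all genes 170 (4.91%) passed, 58 (1.68%) as higher and 112 (3.24%) as lower. Below 0 on all 3 arrays were 2 of the 4 genes and 33.9% of all genes, and above 0 on all 3 arrays 1 of the 4 and 18.1% of all. With 3 pairs an exact sign-flip permutation test of a single gene cannot go below p = 0.25, two-sided, so the adjusted p-values given here rest on the spread that limma shares across genes.

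**Figure D1:**
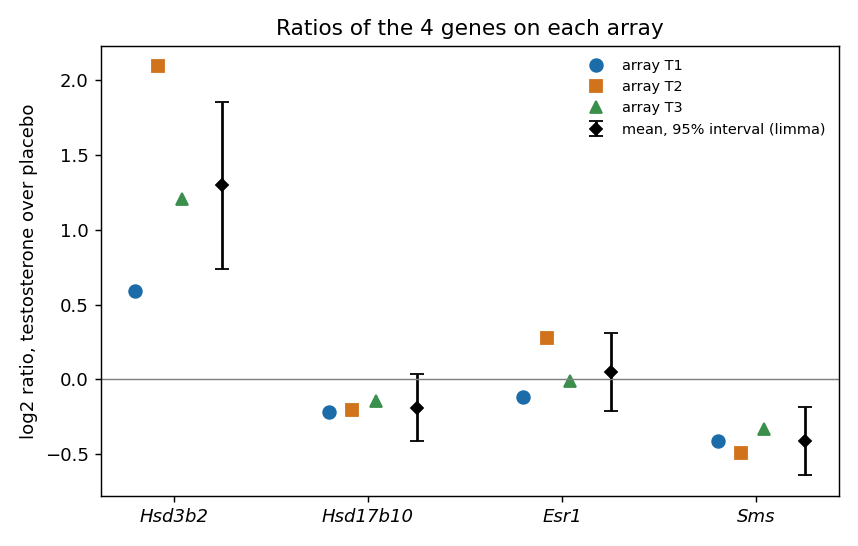
The vertical axis is the log2 ratio of testosterone over placebo and the horizontal axis the gene; each symbol is 1 array, and the diamond with its bar is the mean of 3 arrays with limma's 95% interval. Hsd3b2 runs from 0.59 to 2.09, Hsd17b10 and Sms lie in narrow ranges below 0, and the Esr1 symbols fall on both sides of 0.

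The Hsd3b2 spot had a log2 ratio of 0.59, 2.09 and 1.21 on T1, T2 and T3. All pairs had the higher signal with testosterone, and T2, the array of opposite dyes, had the largest ratio. These ratios correspond to 1.51-fold, 4.27-fold and 2.31-fold. The mean was 1.30 ± 0.75 (SD, n = 3), or 2.46-fold higher, with a 95% interval from 1.67-fold to 3.62-fold (adjusted p = 0.0377 by limma over genes). Over the 6039 spots tested, of which 171 (2.83%) passed and 68 (1.13%) as higher, its adjusted p was 0.0347. Among the 3462 genes it ranked 40th from the top on T1, 6th on T2 and 9th on T3, and 6th by the mean. Its spread was also wide, larger than that of 98.9% of genes. The call was lost without T2 (mean 0.90, adjusted p = 0.131), without T3 (1.34, adjusted p = 0.230), with robust eBayes (adjusted p = 0.0621) and after centring each array on its median (1.33, adjusted p = 0.0558). The call was kept without T1 (1.65), with a dye term (1.496), after centring with scaling (1.26) and with values on at least 2 arrays (1.30). With the sign of T2 turned the mean was -0.098. T2 exceeded the mean of T1 and T3 by 1.19, and dye and pair cannot be told apart with 1 array of the opposite dyes.

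**Figure D2:**
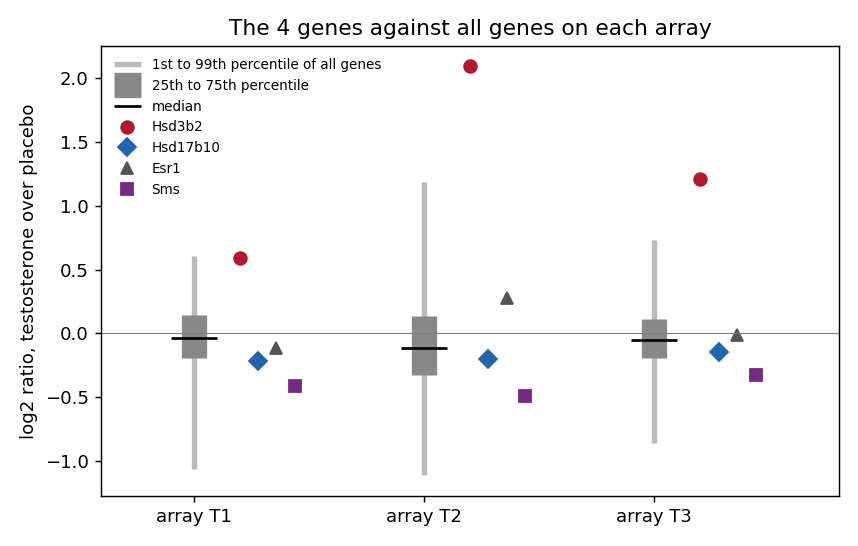
The vertical axis is the log2 ratio of testosterone over placebo and the horizontal axis the array; grey bars span the 1st to 99th and the 25th to 75th percentile of 3462 genes, the line marks their median, and symbols are the 4 genes. Hsd3b2 lies above the 99th percentile on T2 (1.19) and T3 (0.73) and just below it on T1 (0.60), while the other 3 genes lie inside these limits on each array.

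The spots listed before and after Hsd3b2 in the table, 10 on each side, did not share its ratio. The highest of them was 0.49 on T1 (19 with a value), 0.44 on T2 (8 with a value) and 0.39 on T3 (14 with a value). The Hsd3b2 spot exceeded them all, but a spot ranked this high among all genes would exceed most sets of so few. Whether the listing order follows place on the array was not examined, and a local artefact was not tested. In the RefSeq gene order Hsd3b2 lies between Hsd3b5 and Hsd3b3, with Hsd3b4, Hsd3b6 and Hsd3b1 nearby. Hsd3b1 and Hsd3b6 had no spot annotated to either alone that matched the RefSeq gene table. The other relatives were not analysed here as spots of their own. The sequence on the spot is not given in the sources used here, so RNA of a relative and RNA of Hsd3b2 itself cannot be told apart. In the windows before the start, the longest exact run of bases that Hsd3b2 shared with a relative was 10, with Hsd3b1. It was 8 with its neighbours Hsd3b5 and Hsd3b3. Each window is set by the annotated start of its own gene, and these runs do not bear on the sequence on the spot.

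Few other genes of steroid synthesis could be followed. Of 39 listed genes 3 had a value on all arrays, Hsd3b2, Cyp11a1 and Stard4; 1 passed as higher, Hsd3b2, and 0 as lower, beside 1.68% and 3.24% of all genes. Cyp11a1, the cytochrome that cleaves the cholesterol side chain at the first step of steroid synthesis, had ratios of -0.25, 0.006 and 0.099 at 1 spot and -0.388, -0.010 and -0.005 at the other on T1, T2 and T3. Its gene mean was -0.09 ± 0.20 (n = 3; adjusted p = 0.617 by limma). Stard4, a carrier of cholesterol between membranes, had -0.03, 0.20 and 0.020 on T1, T2 and T3, with a mean of 0.06 ± 0.12 (adjusted p = 0.710). Neither had the T2 and T3 ratios above 1 that Hsd3b2 had. The sulfotransferase Sult2b1, which conjugates cholesterol and hydroxysteroids, had a ratio of 0.95 on T1 and 0.77 on T3 and none on T2. Sult2b1 was therefore not in the main fit, and its result with values on at least 2 arrays is not given here. Of 17 markers of gonad and adrenal cells, Cyp11a1 and Fshr, the receptor for follicle-stimulating hormone, were measured; Fshr had -0.076, 1.09 and 0.70 on T1, T2 and T3 (mean 0.57 ± 0.59, adjusted p = 0.118). Skeletal muscle markers, 7 of 18 measured, had medians of -0.032, -0.82 and -0.41 on T1, T2 and T3. Their median was farthest from 0 on T2, the array with the widest spread over all spots tested. B-lineage markers, of which 7 of the 9 measured passed as lower, had medians of -2.14, -2.24 and -1.65. The part of these cell types in the Hsd3b2 ratio was not tested.

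Hsd17b10 had a log2 ratio of -0.218, -0.205 and -0.144 on T1, T2 and T3. The 3 pairs lay close together and on the same side of 0, whichever dye testosterone carried. The mean was -0.19 ± 0.04 (n = 3), or 1.14-fold lower, and the spread was smaller than in all but 4.02% of genes. It did not pass (adjusted p = 0.239 by limma), and the 95% interval ran from -0.41 to 0.03. The mean stood lower than the median of all genes (-0.071), with 26.5% of genes lower still. Centring each array on its median brought it to -0.15. Without any single array the mean stayed between -0.21 and -0.17.

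The hydroxysteroid dehydrogenases measured were thus Hsd3b2 and Hsd17b10, of 24 listed, and their ratios were opposite in sign on each array. Short-chain dehydrogenases outside this group, which share the fold of Hsd17b10 and reduce or oxidise retinoids, sugars and fatty alcohols, had 11 of 44 listed genes measured. Of these 0 passed by limma, beside 4.91% of all genes. Means above 0 were 6 and below 0 were 5, beside 62.4% of all genes below 0, and the median was 0.014, beside -0.071. At an unadjusted p under 0.05 there were 3 of the 11 and 28.1% of all genes. Wwox, a tumour suppressor with a dehydrogenase domain, had 0.43, 0.55 and 0.23 on T1, T2 and T3 (mean 0.40 ± 0.16, adjusted p = 0.0658). Far1, which reduces fatty acyl-CoA to fatty alcohol for ether lipids, had -0.074, -0.49 and -0.24 (mean -0.27 ± 0.21, adjusted p = 0.172).

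A list of genes of branched-chain amino acid and fatty acid oxidation and of mitochondrial ribonuclease P had 15 of 33 members measured. Hsd17b10 is 1 of the 15, and the other ribonuclease P subunits were not among them, so the counts bear on the oxidation genes. Of the 15, 10 had means below 0, beside 62.4% of all genes, and the median was -0.16, beside -0.071. Past the threshold were 1 as lower and 0 as higher, beside 3.24% and 1.68%, and 3 had an unadjusted p under 0.05, beside 28.1%. Hibadh, the dehydrogenase of 3-hydroxyisobutyrate in valine breakdown, was the one that fell, with ratios of -0.65, -0.72 and -0.34 on T1, T2 and T3. Its mean was -0.57 ± 0.20 (1.48-fold lower, adjusted p = 0.0442 by limma). Leaving out T2 or T3 ended that call (adjusted p = 0.225 and 0.179), as did median centring (0.0569). Acat1, the mitochondrial thiolase that follows Hsd17b10 in isoleucine breakdown, had -0.370, -0.379 and -0.292 (mean -0.35 ± 0.05, adjusted p = 0.0735). Like Hsd17b10 it had ratios within 0.1 of each other across pairs and did not pass.

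Esr1 had a log2 ratio of -0.115, 0.279 and -0.010 on T1, T2 and T3. The pairs straddled 0, and T2 stood above the other pairs. The mean was 0.05 ± 0.20 (n = 3; adjusted p = 0.792 by limma), with a 95% interval from -0.21 to 0.31, that is from 0.865 to 1.24 times the placebo level. A difference beyond these limits in either direction lies outside the interval. The mean turned to -0.063 without T2 and to -0.13 with the sign of T2 turned. On T1, the further spot annotated to Esr1 alone had -0.267, below 0 like the spot followed here (-0.115), while a spot annotated to Syne1 and Esr1 together had 0.735 and was not used.

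Pgr, the progesterone receptor, had a spot with no value on any array. Of 13 listed steroid receptors and binding proteins 3 were measured, and 0 passed by limma, beside 4.91% of all genes. At an unadjusted p under 0.05 there were also 0, beside 28.1% of all genes. Their median was -0.13, beside -0.071. Nr3c1, the glucocorticoid receptor, had -0.154, -0.084 and -0.144 on T1, T2 and T3 (mean -0.13 ± 0.04, adjusted p = 0.409). Pgrmc1, a heme-binding membrane protein that associates with progesterone responses, had -0.296, -0.113 and -0.171 (mean -0.19 ± 0.09, adjusted p = 0.243). Both lay below 0 in every pair, unlike Esr1. Nr3c2, the mineralocorticoid receptor, had a value on T1 only (0.233), as did the estrogen-related receptor Esrrg (0.229). Esrra, another estrogen-related receptor, had -0.046 on T1 and -0.156 on T3 at 1 spot and -0.171 on T3 at the other. The aromatase Cyp19a1 had no spot annotated to it alone that matched the RefSeq gene table.

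Chaperones and cofactors of these receptors had 14 of 47 listed genes measured, with 0 past the threshold by limma, beside 4.91% of all genes. There were 8 means above 0 and 6 below (4 below after median centring), beside 62.4% of all genes below 0. The median was 0.034, beside -0.071. At an unadjusted p under 0.05 there were 2, beside 28.1% of all genes. They were Prmt1, an arginine methyltransferase that acts as a coactivator (mean -0.28 ± 0.12, adjusted p = 0.127), and Ep300, a histone acetyltransferase (-0.26 ± 0.10, adjusted p = 0.147). Genes listed as targets of estrogen receptor alpha had 9 of 28 measured, 6 of them with means above 0 and 3 below. Past the threshold were 0, beside 4.91% of all genes, and 2 had an unadjusted p under 0.05, beside 28.1%. Igfbp4, a binding protein of insulin-like growth factors, had 0.23, 1.23 and 0.47 on T1, T2 and T3 (mean 0.64 ± 0.52, adjusted p = 0.0746), and Trim25, a ubiquitin ligase induced by estrogen, had 0.21, 0.50 and 0.22 (0.31 ± 0.16, adjusted p = 0.117).

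Sms had a log2 ratio of -0.414, -0.494 and -0.329 on T1, T2 and T3. Each pair had the lower signal with testosterone, and the pairs differed by at most 0.165. The mean was -0.41 ± 0.08 (n = 3), or 1.33-fold lower, with a 95% interval of -0.64 to -0.18. It did not pass the threshold (adjusted p = 0.0530 by limma over genes, and 0.0582 over spots), although its unadjusted p of 0.00322 was the 209th smallest of 3462; 16.1% of genes had an unadjusted p under 0.05 with a mean below 0. On each array it lay in the lower part of the distribution, with 6.30%, 11.5% and 10.02% of genes below it on T1, T2 and T3. It passed without T1 (-0.41, adjusted p = 0.0335), with a dye term (-0.43, adjusted p = 0.0474) and after centring and scaling (-0.37, adjusted p = 0.0491). It did not pass without T2 (-0.37, adjusted p = 0.234), without T3 (-0.45, adjusted p = 0.273) or after median centring alone (-0.37, adjusted p = 0.0686). Its mean was -0.083 with the sign of T2 turned.

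The genes of polyamine metabolism around Sms did not share 1 direction. Of 30 listed genes 9 were measured, 5 with means above 0 and 4 below, beside 62.4% of all genes below 0. Their median was 0.005, beside -0.071 over all genes. Past the threshold were 0 as higher and 1 as lower, beside 1.68% and 3.24% of all genes. At an unadjusted p under 0.05 there were 5 of the 9 (Sms, Atp13a2, Oat, Mtap and Arg2), beside 28.1% of all genes, and 4 of the 9 were below 0 on all 3 arrays, beside 33.9%. Atp13a2, a lysosomal transporter that exports polyamines, was the one that fell, with -0.62, -0.57 and -0.32 on T1, T2 and T3 (mean -0.50 ± 0.16, 1.42-fold lower, adjusted p = 0.0467 by limma). Median centring ended its call (adjusted p = 0.0630), as did leaving out T2 (0.227) or T3 (0.243). Odc1, the ornithine decarboxylase that starts polyamine synthesis, had -0.017, 0.003 and 0.296 on T1, T2 and T3 (mean 0.09 ± 0.17, adjusted p = 0.591). Sat1, which acetylates spermine and spermidine for export and breakdown, had 0.20, -0.035 and 0.15 (mean 0.11 ± 0.12, adjusted p = 0.519). Arg2, the mitochondrial arginase that supplies ornithine, had 0.75, -0.16 and 0.73 (mean 0.44 ± 0.52, adjusted p = 0.161), so that T2 lay apart from the other pairs. Oat, which interconverts ornithine and glutamate semialdehyde, had -0.283, -0.469 and -0.087 (mean -0.28 ± 0.19, adjusted p = 0.155). Mtap, which salvages the methylthioadenosine released when spermidine and spermine are made, had -0.336, -0.079 and -0.350 (mean -0.26 ± 0.15, adjusted p = 0.164). Oat and Mtap, like Sms and Atp13a2, were below 0 in every pair, with a wider spread than Sms. Azin1, which frees ornithine decarboxylase from its inhibitor, had -0.053, 0.14 and -0.074 (adjusted p = 0.984), and Slc3a2, the heavy chain of an amino acid transporter, -0.15, -0.003 and 0.18 (adjusted p = 0.967).

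**Figure D3:**
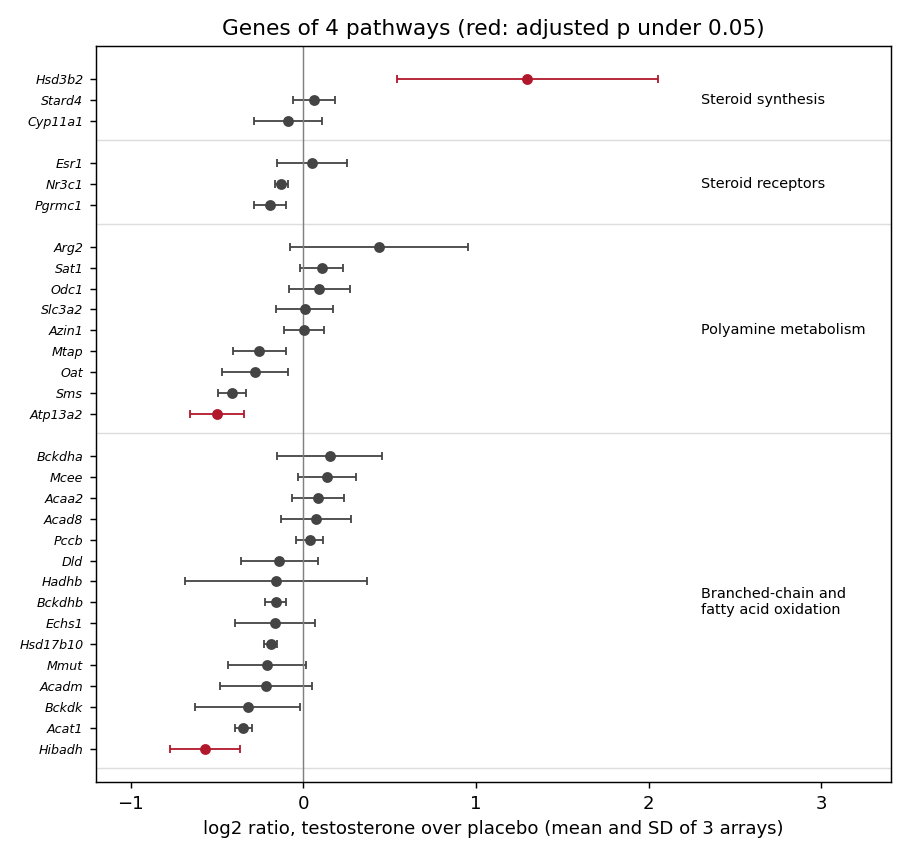
The horizontal axis is the log2 ratio of testosterone over placebo and each row a gene; points are means of 3 arrays, bars 1 SD to each side, and red marks an adjusted p under 0.05 by limma. Hsd3b2 stands alone at 1.30 among the steroid synthesis genes, Atp13a2 lies below Sms at the low end of the polyamine genes, and Hibadh is the lowest of the genes listed with Hsd17b10.

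Sms also belongs to a list of genes that respond to androgen, of which 27 of 97 were measured. Of these 18 had means below 0 (15 after median centring), beside 62.4% of all genes. Past the threshold were 1 as lower and 0 as higher, beside 3.24% and 1.68% of all genes. The median was -0.072, beside -0.071 over all genes. At an unadjusted p under 0.05 there were 6 of the 27, beside 28.1%. Scd1, a desaturase that makes monounsaturated fatty acids, was the one that fell (-0.85, -1.11 and -1.66 on T1, T2 and T3; adjusted p = 0.00580 by limma, and 0.0843 without T2). Sms had the second smallest p of the list.

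Genes whose ratios over the 3 arrays were most like those of each of the 4 were found by Euclidean distance on the log2 scale. Nearest to Hsd3b2 were Stxbp6 (distance 0.20; 0.59, 2.29 and 1.15 on T1, T2 and T3), Nlgn1 (0.23; 0.59, 2.20 and 1.002) and Chsy3 (0.40; 0.26, 1.98 and 1.004). Stxbp6 binds syntaxin, Nlgn1 is a neuronal adhesion protein and Chsy3 a chondroitin synthase. Like Hsd3b2 they rank T2 above T3 and T3 above T1. They were chosen for closeness to Hsd3b2 on these same values, so the shared ranking is no separate result. Nearest to Hsd17b10 were Vwa5a (0.029), Cox7a2 (0.030), a subunit of cytochrome c oxidase, and Ndufb7 (0.031), a subunit of respiratory complex I. Nearest to Sms were the carboxypeptidase inhibitor Lxn (0.059), the splicing factor Rnps1 (0.060) and the RNA polymerase subunit Polr2e (0.072). Esr1 had Tgs1 (0.063), Mtch2 (0.068) and Sec61b (0.074) as nearest genes. Hsd17b10 and Sms were 0.395 apart and Hsd3b2 and Sms, the most distant of the 4, 3.17.

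**Figure D4:**
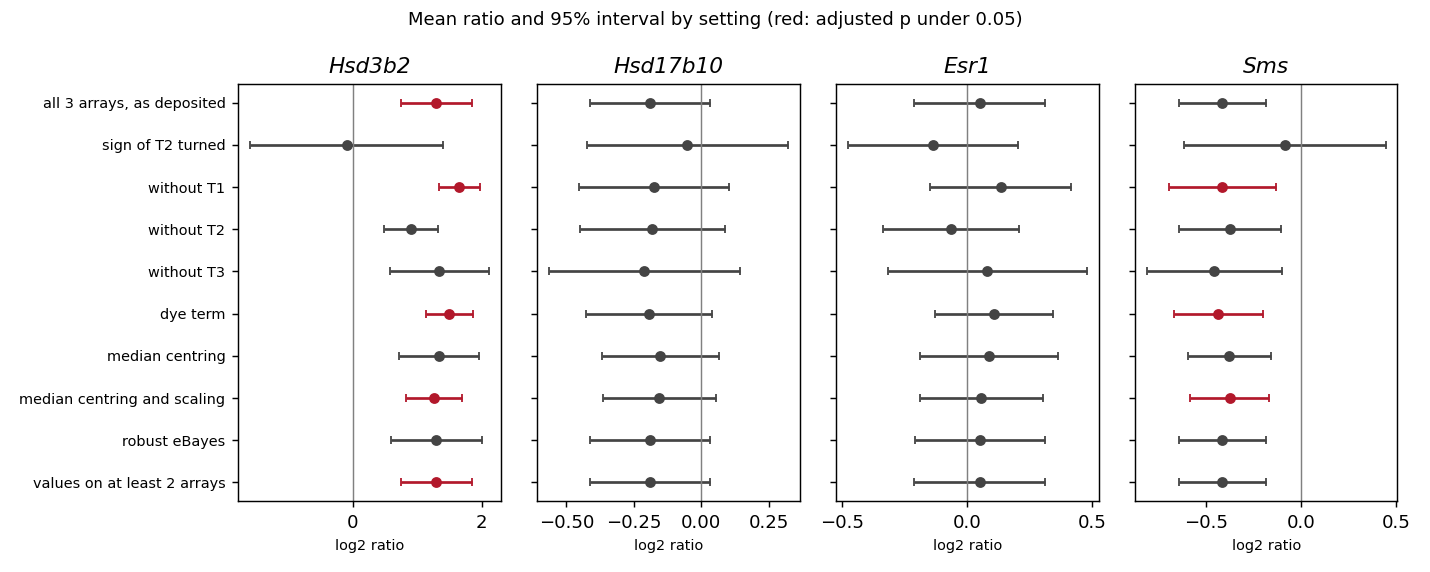
Each panel is a gene, the horizontal axis the mean log2 ratio of testosterone over placebo with limma's 95% interval, and each row a way of processing the values; red marks an adjusted p under 0.05. Hsd3b2 and Sms keep their side of 0 in each row except Hsd3b2 with the sign of T2 turned (-0.098), whereas Esr1 lies near 0 throughout.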

How the data were processed

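Total RNA from pulverized bone was labelled as aminoallyl cDNA with Cy3 or Cy5, per the labels' protocols. The authors deposited a signed log ratio for each spot of an array, read here as log2. For scanner, background correction, filter and normalization the sources used here give nothing, and spot brightness was not analysed here. Of 11552 spots, 8050 were annotated to 1 gene by GEO's platform table and 7880 of these matched the RefSeq gene table of GRCm38.p6 by Entrez ID. The 6039 spots with a value on all 3 arrays, without 12 control or non-mouse spots, were fitted against 0 in R 4.3.3 by limma 3.58.1 (lmFit, then eBayes), two-sided, with Benjamini-Hochberg adjustment at 0.05, and likewise the means of 3462 genes. The deposited signs were kept, since all correlations between arrays were positive (0.42 to 0.73). The procedure was tested on simulated data. Genes named outside the 4 are those called, and the 2 of smallest p, in each pathway list, the measured genes of the polyamine, steroid receptor and hydroxysteroid lists, and the 3 nearest genes. Sult2b1 and Fshr were named after their values were seen. The 4 genes, lists and tests were chosen with earlier results of these data known. Alternatives were the sign of T2 turned, each array left out, median centring, the same with scaling, a term for dye, values on at least 2 arrays, robust eBayes and a threshold of 0.10.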

Additional observations from a re-analysis of the deposited data

How the results depend on the processing

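Hsd3b2 lost its call after median centring (1.33) and with robust eBayes (1.30), ran from 0.90 to 1.65 when 1 array was left out, and was -0.098 with the sign of T2 turned. It kept the call with a dye term (1.496) and after centring with scaling (1.26). Among the fits with 1 array left out, Hsd3b2 passed only without T1 (1.65). Sms passed with a dye term (-0.43), after centring with scaling (-0.37) and at a threshold of 0.10 (-0.41), with means from -0.45 to -0.37 when 1 array was left out. Of the fits with 1 array left out it passed without T1 only, and it did not pass after median centring alone. Esr1 changed sign with T2 turned (-0.13) and ran from -0.063 to 0.13 when 1 array was left out. Hsd17b10 kept its direction and did not pass under any of these alternatives.

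The number of genes called, 170 (58 higher, 112 lower), was 0 with T2 turned (19 at an unadjusted p under 0.05), 385 with a dye term, 61 after median centring (8 higher, 53 lower), 297 after centring with scaling (165 higher, 132 lower) and 498 at a threshold of 0.10, and from 33 to 623 when 1 array was left out. The number of spots called, 171, was 0, 1309, 57, 816 and 1165 under the same alternatives and from 38 to 1095 when 1 array was left out. Turning T2 reversed Chsy3 (-0.24), Far1 (0.059), Igfbp4 (-0.18), Mtch2 (-0.15), Nlgn1 (-0.20), Sec61b (-0.10), Stxbp6 (-0.18), Tgs1 (-0.12), Trim25 (-0.023), Azin1 (-0.089), Fshr (-0.16), Oat (0.033) and Stard4 (-0.071). With 1 array left out, Cyp11a1 ran from -0.16 to 0.022, Mtch2 from -0.093 to 0.095, Sec61b from -0.034 to 0.15, Tgs1 from -0.0695 to 0.11, Azin1 from -0.0635 to 0.044, Odc1 from -0.0068 to 0.15, Slc3a2 from -0.077 to 0.089 and Stard4 from -0.0060 to 0.11; Fshr passed without T1 (0.89). The causes were not tested. The mean and median over spots are the same here because each of the 4 genes had 1 spot tested. The fit against 0 is itself the paired analysis, because each array is already a ratio within 1 pair. Without signal over background, spots near background could not be told from bright ones.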

Other observations

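Hsd17b10 and Sms both lie on the X chromosome in the RefSeq table. The 128 X-linked genes measured had a median log2 ratio of -0.055, beside -0.071 for all 3462 genes, and 61.7% of them had means below 0, beside 62.4%. Of the X-linked genes 1 passed as higher and 0 as lower by limma, beside 1.68% and 3.24% of all genes.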
